A study of Mus musculus with 4 samples.

Results

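Aif1 (allograft inflammatory factor 1, the antigen Iba1) and 7 other genes used as macrophage markers, Fcer1g, Tyrobp, Csf1r, Cd68, Cx3cr1, Ctss and Laptm5, were read from an RNA sequencing study of mouse testis to see whether Aif1 followed the others when Adad2 was lost. The 8 genes were taken by symbol from the 26068 named entries of the gene table, where each symbol had 1 entry, and all 8 passed the filter of a mean of 1 RPKM (reads scaled to gene length and to library depth). They were chosen by their measured difference between knockout and wild type in these same libraries, so those differences are given as a description, with no test.

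The samples were whole testes of male B6D2F1 mice (hybrids bred from inbred lines) at 24 days of age, with 2 libraries from mice homozygous for the Adad2 knockout and 2 from wild type mice. Adad2 is a gene of germ cells whose product carries a domain for binding double-stranded RNA, and the title of the series concerns piRNA biogenesis and the maturation of spermatids. The labels name no driver or promoter, do not say how the allele was made, and do not say whether the libraries of a group came from separate animals, so a p-value measures only the spread between these libraries, which may be technical.

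Macrophages of the testis live between the tubules, beside the Leydig cells, and on the tubule wall near the spermatogonia. They depend on signalling through the receptor Csf1r, sense their surroundings through receptors coupled to the ITAM adaptors Tyrobp and Fcer1g, and carry out phagocytosis and antigen processing in lysosomes rich in Cd68 and cathepsins. Aif1 encodes a calcium-binding protein that binds actin and is widely stained to show microglia and macrophages. In the rat, Aif1 transcript is known from spleen and from testis.

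The depth was estimated at about 32989200 and 29444300 reads for knockout replicates 1 and 2 and at 30251400 and 36914500 reads for wild type replicates 1 and 2. Adad2 itself (ENSMUSG00000024266) stood at 3.73 and 3.30 log2 RPKM in the knockout libraries and at 4.66 and 4.47 in the wild type libraries, a difference of -1.05 (SE 0.16, limma adjusted p = 0.00604), so transcript was still measured in the knockout. Of 13414 genes tested, limma called 8.36% at an adjusted p under 0.05, 7.15% lower and 1.22% higher in the knockout. The median difference of all genes tested was 0.14 on the log2 scale, and the middle of the distribution, between the quartiles, ran from -0.03 to 0.26. With no wild type replicate 1 limma called 0 genes, with 2357 at an unadjusted p under 0.05, so every call below also rests on that library.

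The promoters of Aif1, Cd68 and Ctss are shown because these genes share the macrophage label and did not differ in the same direction between the groups. Each is the RefSeq window of GRCm38.p6 that runs from 250 bases before to 50 bases after the annotated start, read 5′ to 3′ on the strand of the gene. Capitals mark GAGGAA or its reverse complement TTCCTC, the core bound by PU.1, the transcription factor that directs myeloid development.
Aif1, chr17:35176003-35176302, minus strand: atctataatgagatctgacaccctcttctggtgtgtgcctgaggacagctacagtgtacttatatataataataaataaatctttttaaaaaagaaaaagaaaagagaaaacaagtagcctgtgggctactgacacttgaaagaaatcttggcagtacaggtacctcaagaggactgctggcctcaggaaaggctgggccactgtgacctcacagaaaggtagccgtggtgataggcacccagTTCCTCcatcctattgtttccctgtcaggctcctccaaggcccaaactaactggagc
Cd68, chr11:69666121-69666420, minus strand: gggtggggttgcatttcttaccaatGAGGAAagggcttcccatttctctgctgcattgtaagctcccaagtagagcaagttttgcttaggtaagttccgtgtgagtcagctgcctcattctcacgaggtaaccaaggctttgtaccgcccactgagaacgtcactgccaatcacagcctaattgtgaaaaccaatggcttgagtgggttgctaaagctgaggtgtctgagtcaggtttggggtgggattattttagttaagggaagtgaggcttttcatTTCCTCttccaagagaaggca
Ctss, chr3:95526536-95526835, plus strand: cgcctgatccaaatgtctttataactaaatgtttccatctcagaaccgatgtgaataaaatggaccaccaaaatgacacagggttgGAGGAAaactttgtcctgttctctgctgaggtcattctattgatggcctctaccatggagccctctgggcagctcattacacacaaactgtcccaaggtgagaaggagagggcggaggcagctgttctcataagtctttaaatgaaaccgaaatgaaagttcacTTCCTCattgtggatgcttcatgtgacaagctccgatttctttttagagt

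A promoter was matched for 6 of the 8 genes. GAGGAA, searched on both strands, occurred 1 time in the Aif1 window, 2 times each in Cd68 and Ctss, 1 time in Laptm5 and 0 times in Fcer1g and Cx3cr1, and it occurs in 28.3% of the 32851 promoters in the table. The longer word GAGGAAGT, which contains the first, occurred in the Ctss window and in 3.20% of all promoters. The AP-1 word TGACTCA occurred 2 times in Cd68 and in 5.20% of all promoters. Neither TGACGTCA, the element bound by CREB and CREM and held by 1.79% of promoters, nor its part TGACG, held by 20.8%, occurred in the Aif1 window, while TGACG occurred 1 time in Cd68. These words are descriptions of the windows and not sites of binding. The window of Aif1 holds the most distal of its annotated starts. Of 7 Gencode transcripts on GRCm38, 1 starts within the window, 2 start 67 bases downstream of that start and just outside the window, 1 starts 2790 bases downstream, and the remaining 3 start between 3249 and 4210 bases downstream. The values of the table are per gene, so which start was used was not tested.

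Aif1 was the member that stood apart. Aif1 (ENSMUSG00000024397, minus strand, chr17:35307936-35313013 in mm9, with no overlapping entry in the table) had 2.65 and 1.95 log2 RPKM in the knockout libraries, against 4.92 and 4.67 in the wild type libraries. On the linear scale these were 6.30 and 3.86 RPKM in the knockout and 30.3 and 25.4 RPKM in the wild type. Both knockout libraries were below both wild type libraries, and the gap between the groups was wider than the gap within either. The group means were 2.30 ± 0.50 in the knockout and 4.79 ± 0.18 in the wild type (log2 RPKM, SD, n = 2 each), a difference of -2.49, or a 5.63-fold lower level in the knockout. An estimated 318 and 174 reads lay behind the knockout values, and 1405 and 1438 behind the wild type values. Among the 13414 genes tested, 150 (1.12%) had a lower difference than Aif1. RNA of whole testis cannot tell fewer cells of a type from less RNA per cell.

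**Figure D1:**
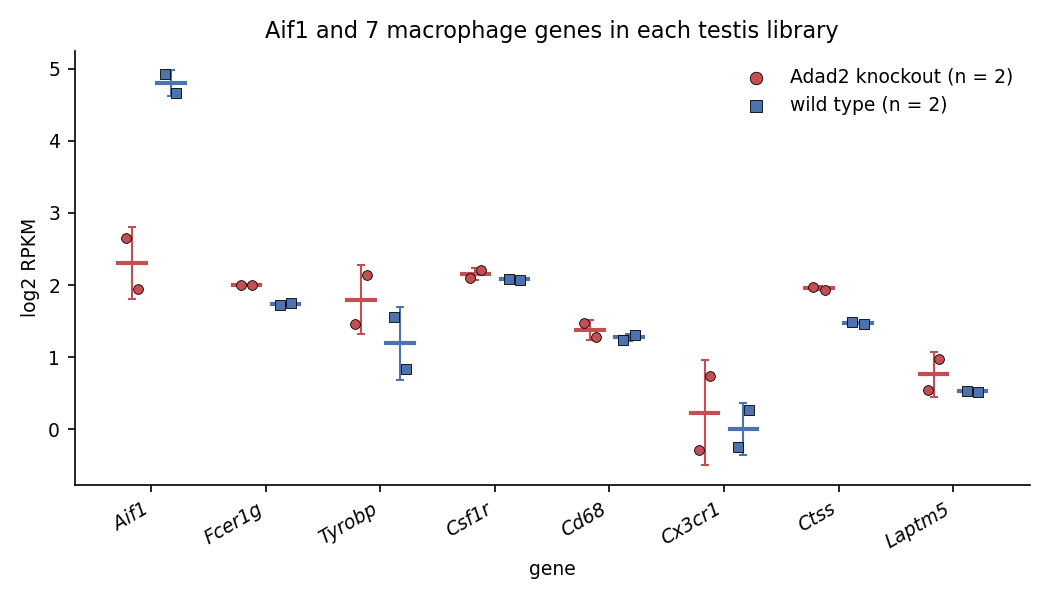
Log2 RPKM of Aif1 and of the 7 other macrophage genes in each library, knockout libraries as circles and wild type libraries as squares. Horizontal bars are group means and whiskers are the SD (n = 2 each). Aif1 sits at 2.65 and 1.95 in the knockout and at 4.92 and 4.67 in the wild type, while for the other genes the 2 groups lie close together or overlap.

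The receptor adaptors were not lower in the knockout. Fcer1g, the common gamma chain that gives Fc receptors their ITAM, had 1.99 and 2.0 log2 RPKM in the knockout libraries and 1.73 and 1.74 in the wild type libraries, a difference of 0.26. Both knockout libraries were above both wild type libraries, with little spread within the groups. Tyrobp (DAP12), the ITAM adaptor of Trem2 and related receptors, had 1.46 and 2.14 log2 RPKM in the knockout libraries and 1.55 and 0.83 in the wild type libraries, a difference of 0.61. This was the largest difference of the 7, and the groups overlapped, since knockout replicate 1 was below wild type replicate 1.

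The surface receptors were close to their wild type level. Csf1r, the receptor of the growth factors Csf1 and Il34, had 2.09 and 2.22 log2 RPKM in the knockout libraries and 2.09 and 2.07 in the wild type libraries, a difference of 0.07. Knockout replicate 1 and wild type replicate 1 were nearly equal, so the groups barely cleared each other. The Csf1r entry overlaps that of Hmgxb3, whose reads cannot be told apart where strand was not used. Cx3cr1, the receptor of the membrane-bound chemokine Cx3cl1, had -0.28 and 0.74 log2 RPKM in the knockout libraries and -0.25 and 0.26 in the wild type libraries, a difference of 0.22. It was the lowest of the 8 in all 4 libraries, and its groups overlapped.

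The lysosomal members were level or somewhat higher. Ctss (cathepsin S), the protease that trims the invariant chain of MHC class II, had 1.98 and 1.94 log2 RPKM in the knockout libraries and 1.49 and 1.46 in the wild type libraries, a difference of 0.48. Its groups did not overlap and each was tight. Laptm5, a lysosomal membrane protein of blood cells, had 0.54 and 0.98 log2 RPKM in the knockout libraries and 0.54 and 0.52 in the wild type libraries, a difference of 0.23 that came from knockout replicate 2. Cd68 (macrosialin), a heavily glycosylated protein of late endosomes and lysosomes, had 1.47 and 1.28 log2 RPKM in the knockout libraries and 1.24 and 1.31 in the wild type libraries, a difference of 0.10 with overlapping groups.

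All 7 differences were above 0, with a range of 0.07 to 0.61, except that Csf1r came to -0.04 and Cd68 to -0.02 under a scaling chosen after seeing the data, which moves each library by its median deviation from the gene means. That scaling lowers every difference by 0.12 and leaves a median difference of 0.03 over all genes tested. The median of the 7 was 0.23, or 0.12 with that scaling, and 5 of the 7 were above the median of all genes tested. Both knockout libraries were above both wild type libraries for 4 of the 7, and for 46.4% of all genes tested. A count of 4 of 7 is near that background and is no result about these genes. The differences of Tyrobp and Ctss were toward the upper end of the distribution, with 98.9% and 97.0% of all genes tested below them, and for the other 5 that share ran from 37.6% (Csf1r) to 75% (Fcer1g). The estimated reads behind a value of the 7 ran from 43.8 to 898.

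**Figure D2:**
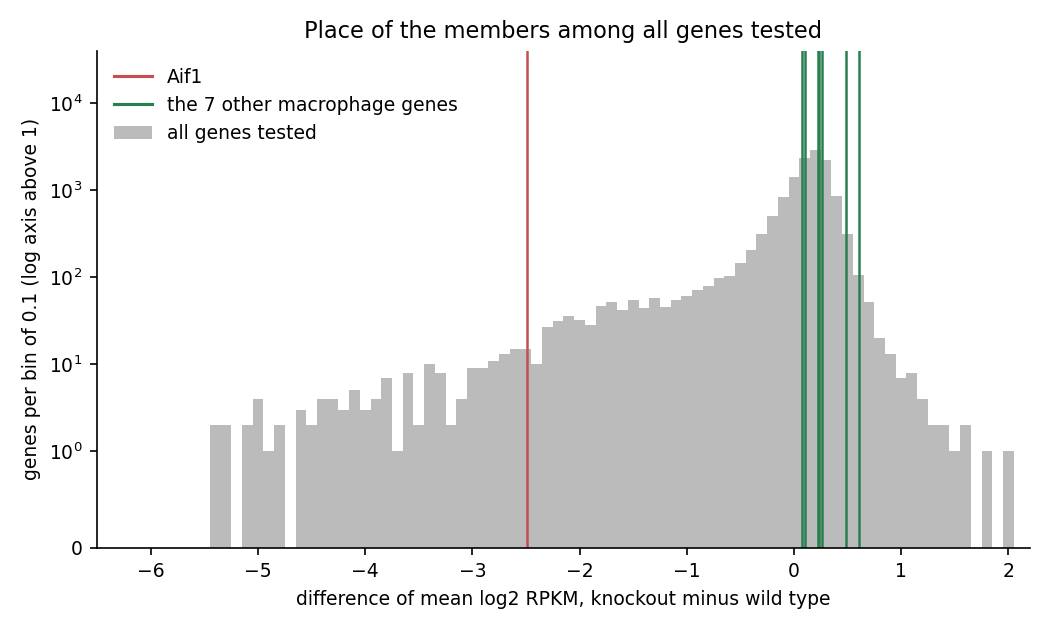
Number of genes per bin of difference in mean log2 RPKM, knockout minus wild type, over 13414 genes tested (grey, log axis), with lines at Aif1 and at the 7 other macrophage genes. Aif1 lies at -2.49 in the lower tail, and of the 7 others, between 0.07 and 0.61, Ctss (0.48) and Tyrobp (0.61) lie in the upper tail and the rest near the peak.

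Set against the others within a library, Aif1 changed its place. In knockout replicates 1 and 2 it was 1.18 and 0.01 above the median of the 7 others on the log2 scale, whereas in wild type replicates 1 and 2 it was 3.44 and 3.36 above it. The difference of the group means was -2.80. Csf1r was the highest of the 7 in each library. Aif1 stood 0.56 above Csf1r in knockout replicate 1 and -0.27 relative to it in knockout replicate 2, against 2.83 and 2.59 above it in the wild type libraries. Aif1 was thus the highest of the 8 in knockout replicate 1 and the 4th highest in knockout replicate 2, and the highest in both wild type libraries.

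On the linear scale, the 7 others summed to 20.0 and 22.9 RPKM in the knockout libraries and to 18.0 and 17.2 RPKM in the wild type libraries. The sum averaged 21.5 ± 2.08 RPKM in the knockout and 17.6 ± 0.53 RPKM in the wild type (SD, n = 2 each), 1.22 times the wild type level. Aif1 alone was 0.315 and 0.168 of that sum in the knockout libraries, against 1.69 and 1.48 times the sum in the wild type libraries. Wild type testis therefore held more Aif1 RPKM than the 7 others together, and knockout testis held less.

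Genes that are known in macrophages and their relatives were next counted from 9 lists that leave out the 8 members. Of 178 listed genes in the table, 121 were below the filter, 44 of them under 0.1 RPKM, and 57 were tested. Limma called 1 lower and 0 higher, beside 7.15% lower and 1.22% higher of all genes tested. An unadjusted p under 0.05 was found for 12 of the 57 (21.1%), or 4 with the library deviations set to 0, beside 27.0% of all genes tested. The median difference of the 57 was 0.18, beside 0.14 for all genes tested, with 47 above 0 and 10 below, or 37 above 0 with the library deviations set to 0. The range was -1.05 to 0.50. Both knockout libraries were above both wild type libraries for 30 of the 57 (52.6%), beside 46.4% of all genes tested. None of the 57 had a difference as low as that of Aif1. Among the listed genes below the filter, Trem1 had a lower one, at -3.82. It rested on an estimated 0.992 and 1.98 reads in the knockout libraries and 21.8 and 20.8 in the wild type libraries.

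The called gene was Cmklr1, the receptor for the chemoattractant chemerin on macrophages and dendritic cells. It had 1.05 and 0.49 log2 RPKM in the knockout libraries and 1.83 and 1.80 in the wild type libraries, and it fell by 1.05 (2.06-fold lower, limma adjusted p = 0.0143). The call was lost without wild type replicate 1 (adjusted p = 0.222), without wild type replicate 2 (adjusted p = 0.177) and with no filter on low values (adjusted p = 0.0688). The chemokine list held 3 other tested genes, none called. Cx3cl1, the ligand of Cx3cr1, had 1.0 and 1.46 log2 RPKM in the knockout libraries and 0.75 and 0.79 in the wild type libraries, a difference of 0.46 (limma adjusted p = 0.176). Cxcr4, the receptor of Cxcl12, differed by 0.21.

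Of the ITAM signalling list, 3 of 26 genes were tested and 0 were called, with a median of 0.12. Fcgr3, an activating Fc receptor that signals through Fcer1g, had 3.20 and 3.41 log2 RPKM in the knockout libraries and 3.04 and 3.31 in the wild type libraries (difference 0.12, limma adjusted p = 0.523). Inpp5d, the phosphatase SHIP1 that restrains this signalling, differed by 0.29, and Sirpa, an inhibitory receptor, by -0.19. Of the Csf1 axis and macrophage transcription factors, 6 of 16 were tested, 0 were called and the median was 0.14. Csf1, a ligand of Csf1r, differed by 0.17. Csf2ra, a receptor chain for granulocyte-macrophage colony-stimulating factor, had 2.12 and 1.85 log2 RPKM in the knockout libraries and 1.52 and 1.51 in the wild type libraries (difference 0.47, limma adjusted p = 0.0952).

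Surface and secreted markers of tissue macrophages were present in every library. Of 36 listed genes, 14 were tested and 0 were called, with a median of 0.14 and 12 of the 14 above 0, or 8 of the 14 with the library deviations set to 0. Their RPKM over the whole list summed to 103 and 113 in the knockout libraries and to 88.3 and 103 in the wild type libraries. Lyz2 (lysozyme M) had 3.96 and 3.86 log2 RPKM in the knockout libraries and 3.60 and 4.0 in the wild type libraries, with overlapping groups. C1qa, a chain of the complement component C1q that macrophages secrete, had 3.16 and 3.33 log2 RPKM in the knockout libraries and 2.95 and 3.33 in the wild type libraries, again overlapping. Apoe, a lipid carrier, differed by 0.24 (limma adjusted p = 0.215). Among the listed genes below the filter, differences reached -1.30 (Msr1) and 1.72 (Ncf4). Differences of the 14 tested genes ran from -0.20 to 0.50. The highest were those of Mertk, a receptor for the uptake of dying cells (0.50, limma adjusted p = 0.106), the chemokine Pf4 (0.44, with overlapping groups), Cyba, a subunit of the phagocyte oxidase (0.43), and Mpeg1, the pore-forming perforin-2 (0.35), while the mannose receptor Mrc1 differed by 0.13 and Emr1, which encodes the antigen F4/80, by 0.01.

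The remaining immune lists gave the same count of 0 calls each. Of MHC class II and antigen presentation, 4 of 14 genes were tested with a median of 0.31, and H2-Ab1, a class II beta chain, differed by 0.32 (limma adjusted p = 0.297). Of the microglia markers, 3 of 10 were tested with a median of 0.06, which became -0.06 with the library deviations set to 0. Of the lysosome and cathepsin genes, 17 of 21 were tested, 16 were above 0, or 14 with the library deviations set to 0, and the median was 0.19. Ctsl, a cathepsin that Sertoli cells also make, differed by 0.26, and Lamp1, a general lysosomal membrane protein, by 0.14. Of the list that joins the Aif1 relative Aif1l with leukocyte actin regulators, 5 of 14 were tested with a median of 0.09, which became -0.03 with that scaling. Rac1, the small GTPase through which Aif1 is thought to reshape actin, differed by 0.23, and Arpc1b, an Arp2/3 subunit, by 0.46 (limma adjusted p = 0.0931). Of 28 markers of T, B, NK, mast cells and neutrophils, 27 were below the filter, and the one tested gene, Kit, which germ cells and Leydig cells express too, differed by 0.39.

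**Figure D3:**
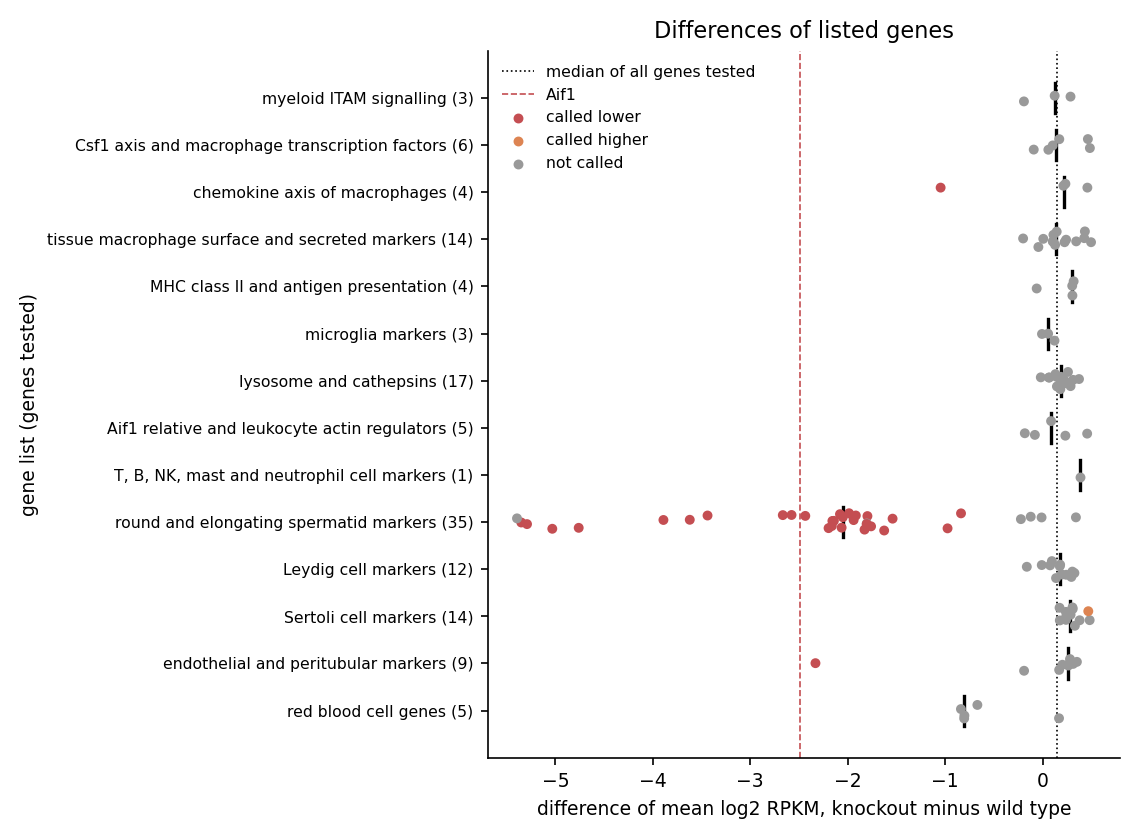
Difference in mean log2 RPKM, knockout minus wild type, of each tested gene in 14 lists, 1 point per gene, with the list median as a black bar and lines at Aif1 (-2.49) and at the median of all genes tested (0.14). The macrophage and other immune lists lie around the line of all genes, with Cmklr1 as the one called point, while the spermatid list lies around -2.05.

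Markers of another cell type moved the way Aif1 did. Of 35 markers of round and elongating spermatids, all 35 were tested, 29 fell, 0 rose and 34 were below 0, with a median of -2.05. Of all genes tested, 7.15% were called lower and 1.22% higher. The list was chosen with earlier results of these data known, so its counts are a description. Calls on this list numbered 19 without wild type replicate 2 and 0 without wild type replicate 1. Their RPKM summed to 924 and 788 in the knockout libraries and to 2329 and 2244 in the wild type libraries, 0.374 of the wild type level. For 10 of the 35 the difference was lower than that of Aif1. Their part in the difference of Aif1 was not tested.

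Among the spermatid markers, Tssk6, a kinase of spermatids, had 0.00 and -0.01 log2 RPKM in the knockout libraries and 3.47 and 3.40 in the wild type libraries (difference -3.44, limma adjusted p = 4.18e-05). Tekt5, a tektin of the sperm flagellum, had 2.13 and 1.95 log2 RPKM in the knockout libraries and 4.08 and 4.16 in the wild type libraries (difference -2.08, limma adjusted p = 5.5e-05). Both were low in each knockout library and did not overlap with the wild type. Dkkl1, an acrosomal protein whose transcript is already made in spermatocytes, differed by -0.12 and was not called.

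Leydig and Sertoli markers, and the endothelial and peritubular genes tested other than Actg2, did not move with Aif1. Of 12 Leydig markers 0 were called, with a median of 0.18. Some varied widely within a group. Cyp17a1 had 4.63 and 5.85 log2 RPKM in the knockout libraries and 3.85 and 6.02 in the wild type libraries. The Leydig list summed to 392 and 553 RPKM in the knockout libraries and to 335 and 488 RPKM in the wild type libraries. This spread limits what the lack of Leydig calls shows. Of 14 Sertoli markers in the tests 1 rose (Mro) and 0 fell, with a median of 0.28. Both knockout libraries were above both wild type libraries for 13 of these 14, beside 46.4% of all genes tested. The call of Mro (difference 0.47, limma adjusted p = 0.0271) was lost with no filter (adjusted p = 0.0766), with the library deviations set to 0 (0.0779), with limma without trend and robust estimation (0.0703) and without knockout replicate 1 (0.0551), wild type replicate 1 (0.169) or wild type replicate 2 (0.168). Of 15 endothelial and peritubular genes, 9 were tested, of which 1 fell and 0 rose, with a median of 0.26. The 6 below the filter were Pecam1, Kdr, Tek, Vwf, Emcn and Pdgfrb, so few endothelial genes were tested. The gene that fell was Actg2, smooth muscle gamma actin, with 1.76 and 0.95 log2 RPKM in the knockout libraries and 3.77 and 3.60 in the wild type libraries (difference -2.33, limma adjusted p = 0.00854). The other 8 tested genes of its list ranged from -0.19 (Cnn1, a smooth muscle calponin) to 0.35 (Vim, the intermediate filament vimentin), and none was called. Of 5 red blood cell genes tested 0 were called, with a median of -0.80 and 4 of the 5 below 0. Their list summed to 38.7 and 50.4 RPKM in the knockout libraries and to 105.8 and 50.7 RPKM in the wild type libraries. Wild type replicate 1 alone was thus high.

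The genes with the pattern most like that of Aif1 were sought among all genes tested, by the Euclidean distance between values over the 4 libraries after the mean of each gene was subtracted. This uses the same contrast that chose Aif1 and is a description. Leaving out clone names, the closest 8 were Galntl5, Tmem82, Hyal5, Acrv1, Tbc1d21, Tmco2, Aqp7 and Csnka2ip, at distances of 0.0907 to 0.155. The closest was Galntl5, a relative of the enzymes that start mucin-type glycosylation, at 2.61 and 1.81 log2 RPKM in the knockout libraries and 4.81 and 4.64 in the wild type libraries. Acrv1 (SP-10), a protein of the acrosome, had 3.67 and 2.82 log2 RPKM in the knockout libraries and 5.81 and 5.55 in the wild type libraries. Hyal5, a hyaluronidase of sperm, had 1.72 and 1.01 log2 RPKM in the knockout libraries and 3.97 and 3.85 in the wild type libraries. Aqp7, a water and glycerol channel, had 1.46 and 0.77 log2 RPKM in the knockout libraries and 3.60 and 3.31 in the wild type libraries. In each of these 4, as in Aif1, knockout replicate 2 was the lowest library and wild type replicate 1 the highest. They were picked as close to Aif1 over these same libraries, so this shared order is no further result.

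The 7 other macrophage genes were 2.63 to 3.27 away from Aif1, the nearest being Cd68 at rank 4994 of 13413 and the farthest Tyrobp at rank 13324. Among themselves the 7 were 0.205 to 0.982 apart, with a median of 0.557 over 21 pairs. Genes with little difference between libraries lie close together by this measure whatever their function.

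**Figure D4:**
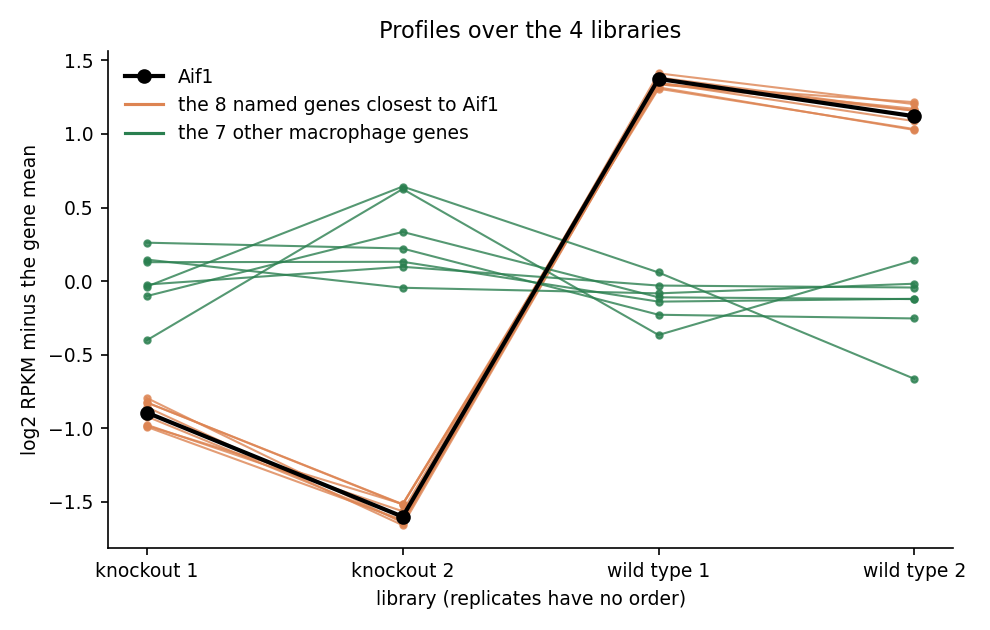
Log2 RPKM minus the gene mean in the 4 libraries for Aif1 (black), the 8 named genes closest to it (orange) and the 7 other macrophage genes (green). The orange lines run with Aif1, below 0 in both knockout libraries and above 0 in both wild type libraries. The green lines lie above the orange lines in the knockout libraries and below them in the wild type libraries.

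Aif1 lies in the class III part of the major histocompatibility complex, among genes of immunity and of general cell function. The nearest 5 entries on each side were D17H6S53E, Apom, Bag6, Prrc2a and Gm17705 on one side and Lst1, Ltb, Tnf, Lta and Nfkbil1 on the other. Of these 10, 5 were tested and 0 were called by limma, with differences of -0.14 to 0.34 and a lowest adjusted p of 0.363. Bag6, a chaperone that is also needed for spermatogenesis, had 6.31 and 6.39 log2 RPKM in the knockout libraries and 6.38 and 6.55 in the wild type libraries, with overlapping groups. Nfkbil1, a nuclear protein related to the NF-kappaB inhibitors, had 3.54 and 3.65 log2 RPKM in the knockout libraries and 3.71 and 3.76 in the wild type libraries, a difference of -0.14. Lst1, a leukocyte gene next to Aif1, was below the filter at -1.45 and -1.29 log2 RPKM in the knockout libraries and -1.06 and -0.94 in the wild type libraries. Tnf, the macrophage cytokine, was below -5 on the log2 RPKM scale in all 4 libraries.

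**Figure D5:**
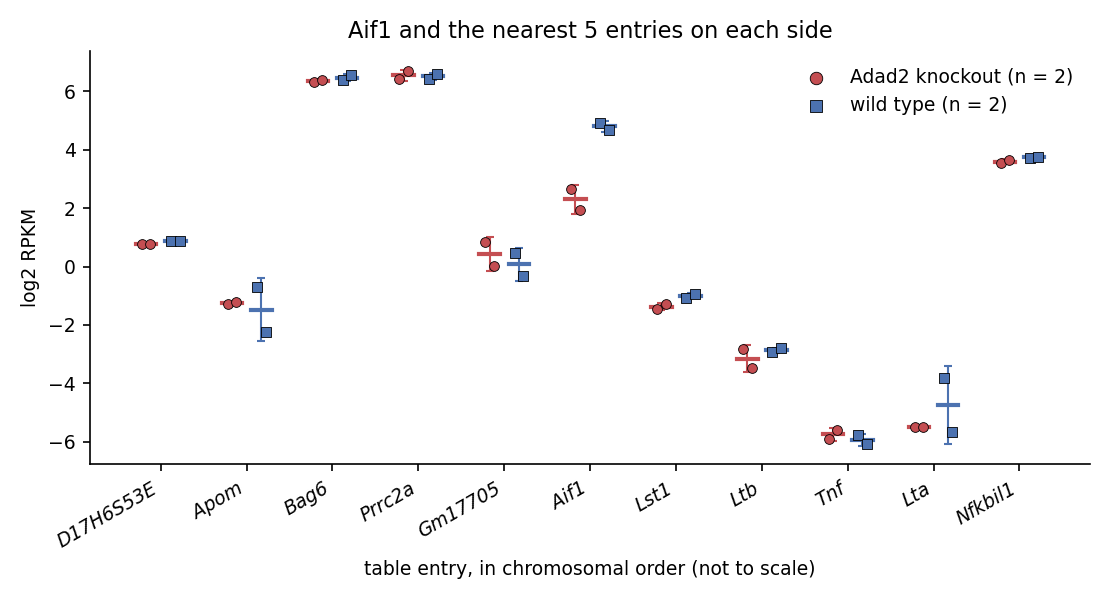
Log2 RPKM of Aif1 and the nearest 5 table entries on each side, in chromosomal order, with knockout libraries as circles and wild type libraries as squares, bars for group means and whiskers for the SD (n = 2 each). Aif1, at 2.30 in the knockout and 4.79 in the wild type on average, is the one entry of the 11 with a wide gap between groups that do not overlap.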

How the data were processed

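RNA of whole testes was sequenced after TruSeq library preparation, per the labels' protocols. Bowtie2, bcl2fastq 2.17.1.14 and the build mm9 are listed in the submitters' processing notes. How reads were counted, the annotation and the use of strand were not given in the sources used here. The authors deposited log2 RPKM per gene with no read counts. Of 26127 rows, 59 (0.226%) name no gene and were left out. Columns were assigned by the group and number in their names, and the authors' mean columns were not used. Depth was estimated from the value of 1 read in single-exon genes at the lowest values: 97.8% to 100% of those values were whole within 2% of 1 read, and genes without reads held 0.9 of a read, so folds of genes near that floor are understated. Reads per gene used Gencode M21 exon lengths by gene identifier.

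Genes with a mean of at least 0 (1 RPKM) were tested with limma 3.58.1 (R 4.3.3, statmod 1.5.0), unpaired and two-sided, with intensity trend and robust estimation, and p-values were adjusted over the whole table of tested genes by Benjamini-Hochberg, with a threshold of 0.05. Errors are SDs over 2 libraries per group. With 2 libraries against 2, an exact permutation test cannot give a p below 0.333. The code was tested on simulated data with 200 changed genes. Members and gene lists were chosen with earlier results of these data known. Named genes are the members, Adad2, up to 4 called and 3 most abundant genes per list, the 8 genes closest to Aif1 and its 10 neighbours, with some further tested list genes added after their values were seen. One gene that the rule names is left out here. Promoters and motif shares come from RefSeq GRCm38.p6, which is not the build of the table. Alternatives were no filter, a stricter filter at a mean of 2, quantile normalization, the replicate number as a block, log2(RPKM + 1), each library left out, plain limma with neither trend nor robust fit, equal medians of the libraries, and a scaling added later that sets each library's median deviation from the gene means to 0.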

Additional observations from a re-analysis of the deposited data

How the results depend on the processing

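The difference of Aif1 stayed between -2.85 and -2.14 when each library was left out in turn and between -2.61 and -2.27 under the other alternatives. The median of the 7 other macrophage genes stayed above 0, at 0.20 to 0.45 and 0.12 to 0.25 in the same order, and the difference of Aif1 minus the median of the others ran from -3.39 to -2.22 and from -2.80 to -2.50. Of the single members, Cx3cr1 had a difference of -0.29 to 0.74 with a library left out. The count of genes called was 1122 and ran from 0 (without wild type replicate 1) to 1713 (without knockout replicate 1) with a library left out, being 310 without wild type replicate 2 and 1550 without knockout replicate 2. With the replicate number as a block it was 3314. The labels do not say whether libraries of the same number belong together, and the main fit was unpaired. The difference between replicates 1 and 2 in the knockout correlated with that in the wild type at r = 0.33 across 13414 genes. The immune lists had 1 call, 4 with no filter, 0 with a filter at 2, 11 with the block and 0 to 6 with a library left out: 0 without either wild type library, 2 without knockout replicate 2 and 6 without knockout replicate 1. The share of calls that were higher was 14.5%, 25.7% with the filter at 2, 55.4% with the block, and 5.71% with the library deviations set to 0. The causes were not tested. Leaving out a library assumes that its lone partner varies like the other group. Depth limits Tyrobp (from 43.8 reads) and the listed genes below the filter with few reads, though others there held up to 274.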

Other observations

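Among the 121 immune genes below the filter, 9 (7.44%) had at least 10 estimated reads in both libraries of one group and a difference of at least 0.8 on the log2 scale, a rule set after the values were seen. The share was 9.95% among all 10828 genes below the filter with a read estimate, so the count is no result about immune genes, and the values are given as a description. Of the 9, 3 were lower in the knockout. Trem1, an activating receptor of myeloid cells that signals through Tyrobp, had an estimated 0.992 and 1.98 reads in the knockout libraries and 21.8 and 20.8 reads in the wild type libraries. Msr1, a scavenger receptor of macrophages, had 47.4 and 61.6 reads in the knockout libraries and 120.2 and 170.6 reads in the wild type libraries. Vsig4, a complement receptor of tissue macrophages, had 8.01 and 6.0 reads in the knockout libraries and 12 and 16 reads in the wild type libraries. The other 6 were higher in mean in the knockout. Itgb2, the beta chain of leukocyte integrins, had 77.1 and 52 reads in the knockout libraries and 33 and 43 reads in the wild type libraries. Tcfec, a transcription factor of macrophages, had 22 and 22 reads in the knockout libraries and 6.29 and 9.43 reads in the wild type libraries. The others were Lilrb3, Xcr1, Was and H2-Aa, the last with overlapping groups. Read estimates are not scaled for depth. With no filter, limma called Trem1 lower (adjusted p = 0.0168) and none of the other 8, and on the immune lists it also called Siglech lower (adjusted p = 0.0182), Fcgr4 higher (adjusted p = 0.0232) and Clec9a higher (adjusted p = 0.0163). Those 3 rest on few reads: Siglech had 1.0 and 1.0 in the knockout libraries and 3.0 and 4.0 in the wild type libraries, Fcgr4 had 4.0 and 3.0 in the knockout libraries and 0.9 and 0.9 in the wild type libraries, and Clec9a had 2.97 and 2.96 in the knockout libraries and 0.89 and 0.988 in the wild type libraries.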
